A study of Mus musculus with 6 samples.

Results

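The genes described here are 30 genes of the GABAergic interneuron lineage. They were chosen by name from what the genes are known to do, with earlier results of these data known. They are enzymes and a transporter of GABA transmission and transcription factors that specify and guide interneurons. Receptors of migrating interneurons and markers of mature subtypes are also among them. All 30 were found by symbol in the deposited table of 23016 entries, where they had 31 entries because Dlx1 was listed in 2. They were compared in cerebral cortex dissected on postnatal day 0 from 3 Fezf2 KO pups (Fezf2-/-) and 3 wild type pups (Fezf2+/+), born to crosses between Fezf2+/- parents. One library was made from the total RNA of each brain and sequenced on an Illumina Genome Analyzer II, so that the replicates are separate animals. Litter m1 gave the first and second replicate of each genotype and litter m2 the third. Fezf2 is the gene of a zinc finger factor that specifies deep-layer excitatory neurons, and the null genotype is carried by every cell of the pup.

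GABAergic interneurons of the cortex are not born there. They arise in the ganglionic eminences under the cortex, where Dlx and Gsx homeobox genes set the GABAergic fate, and then migrate tangentially into the cortical wall. The medial eminence, marked by Nkx2-1 and its target Lhx6, gives the later parvalbumin and somatostatin cells, whereas the caudal eminence, marked by Nr2f2, Sp8 and Htr3a, gives other classes. Many of the same genes also mark the GABAergic projection neurons of the striatum, which borders the cortex and comes from the same eminences.

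The recovered gene reads were between 44978380 and 52872577 per library, and levels are given as the deposited normalised read counts, which are not scaled to gene length. Fezf2 itself averaged 1633 ± 318 in Fezf2 KO and 5452 ± 452 in wild type cortex (SD, n = 3 each; log2 -1.75, limma adjusted p = 0.000832). Reads of the gene thus remained in the Fezf2 KO libraries, and what the mutant allele lacks was not given in the sources used here. The 9 dorsal cortex markers were all detected, with a summed level of 126459 to 139130 in Fezf2 KO and 120142 to 129610 in wild type libraries. A list of 16 striatal neuron entries, none of them at 0 in any library, summed to 14794 to 21046 in Fezf2 KO and 22952 to 27509 in wild type libraries. Choroid plexus genes stood apart in Fezf2 KO 1, where 6 entries summed to 9589, against 124 and 129 in the other Fezf2 KO libraries and 64.5 to 93.4 in wild type.

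Most of the interneuron genes did not pass the test for a difference between the genotypes, which does not show that they were equal. Each log2 change is Fezf2 KO over wild type, taken on the normalised count plus 1, and the threshold was a limma p under 0.05 after Benjamini-Hochberg adjustment over all 17557 entries tested. Of the 30 member entries tested, 1 rose in Fezf2 KO cortex, the transcription factor gene Sp8, and 0 fell, where 0.712% of all tested entries changed, 0.404% rising and 0.308% falling. At an unadjusted limma p under 0.05, 8 entries were higher and 2 were lower, against 4.66% and 4.37% of all entries. On the recovered reads, edgeR (TMM factors) called 0 members in either direction, with 67 higher and 54 lower among all 17557 entries. DESeq2 called 3 members higher (Sp8, Htr3a and Lhx6) and 0 lower, with 242 (1.38%) higher and 161 lower among all entries. Pvalb did not pass the filter on low values. The median log2 change of the tested entries was 0.10, beside 0.00 over all entries, with 20 entries above 0 and 10 below. Single libraries moved this median: it was 0.05 without Fezf2 KO 2 or wild type 2, 0.14 without Fezf2 KO 1 and 0.15 without wild type 3.

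All 3 Fezf2 KO libraries lay above all 3 wild type libraries in 8 entries (26.7%), Sp8, Htr3a, Lhx6, Dlx2, Nr2f1, Cxcr4, Cxcr7 and Maf, against 7.6% of all tested entries. The opposite order was found in 1 entry (3.33%), Kit, against 6.85% of all. The libraries of the 2 genotypes overlapped for the other 21 entries. Values in bulk tissue do not separate fewer cells from less RNA in each cell.

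**Figure D1:**
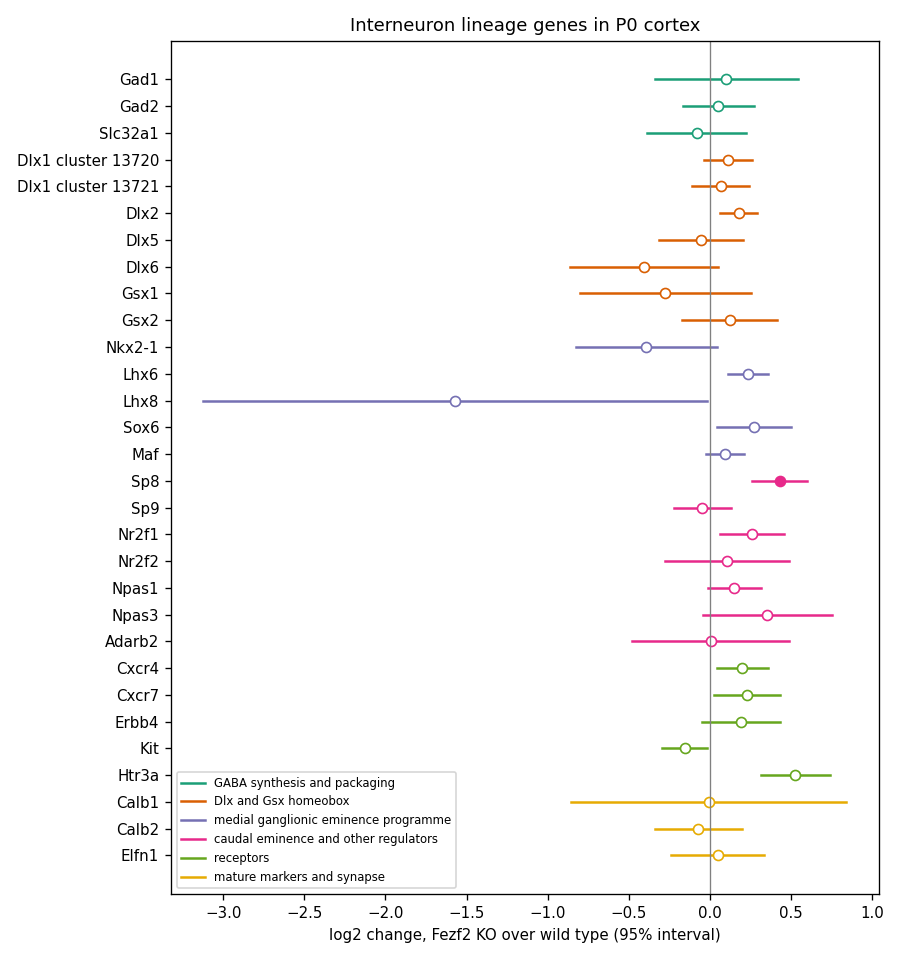
Log2 change (Fezf2 KO over wild type) of each member entry tested, with its 95% limma interval, in order of role. Colours are roles, and a filled point passed the test: Sp8 alone is filled, at 0.43, Htr3a reaches 0.53 just outside the threshold, and the interval of Lhx8 is the widest, from -3.13 to -0.01.

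Sp8 encodes a zinc finger factor of caudal eminence interneurons and of olfactory bulb interneurons, and Sp9 encodes its close relative. Sp8 had 1459.9, 1527 and 1409 normalised reads in the Fezf2 KO libraries, against 1159, 1089.9 and 1012 in the wild type libraries. Every Fezf2 KO library lay above every wild type library. Sp8 averaged 1465 ± 58.8 in Fezf2 KO and 1087 ± 73.5 in wild type cortex (SD, n = 3 each), a log2 change of 0.43 (SE 0.073, 95% interval 0.26 to 0.60, limma adjusted p = 0.0457).

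That call lay close to the threshold. It was lost without Fezf2 KO 1, 2 or 3 (adjusted p 0.103, 0.124 and 0.129) and without wild type 1, 2 or 3 (0.0652, 0.167 and 0.127), while the log2 change stayed between 0.38 and 0.48. It was also lost with edgeR on the recovered reads (adjusted p = 0.0600), with limma-voom (0.0547) and with no filter in limma (0.0506), and it held with DESeq2 (8.46e-05) and with a litter block (0.0339).

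Sp9 had 2602, 2908 and 2542 normalised reads in Fezf2 KO, against 2969.9, 2789.6 and 2549 in wild type cortex. The libraries overlapped, and the log2 change was -0.04 (95% interval -0.22 to 0.13, limma adjusted p = 0.938). The number of Sp8 reads per Sp9 read was 0.561, 0.525 and 0.554 in Fezf2 KO, against 0.390, 0.391 and 0.397 in wild type libraries. The ratio is given as a description, since the pair was chosen after its values were seen. An exact permutation test of the log2 ratio gave p = 0.1, the smallest value that 3 against 3 libraries allow. Among the other ratios computed, Htr3a over Slc32a1 also gave 0.1 in that test. Lhx6 over Slc32a1, Dlx6 over Dlx5, Nr2f1 over Nr2f2 and Cxcr7 over Cxcr4 gave 0.3, 0.2, 0.6 and 0.9.

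The upstream regions of the 2 genes are printed because Sp8 passed the test and Sp9 did not, while their windows hold a shared stretch. That contrast was picked after the values were seen. RefSeq (GRCm38.p6) gives 3 starts for Sp8 and 1 for Sp9. The 250 bases before the start whose window shares the longest stretch with the Sp9 window are shown for Sp8 (start number 2, chr12:118846983-118847232, plus strand), then the 250 bases before the Sp9 start (chr2:73271676-73271925, plus strand). Capitals mark the longest run of bases that the windows share.
Sp8: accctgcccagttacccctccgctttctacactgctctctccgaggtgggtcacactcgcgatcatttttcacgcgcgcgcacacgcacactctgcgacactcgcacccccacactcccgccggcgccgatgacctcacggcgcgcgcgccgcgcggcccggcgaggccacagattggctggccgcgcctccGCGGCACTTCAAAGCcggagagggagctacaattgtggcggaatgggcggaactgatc
Sp9: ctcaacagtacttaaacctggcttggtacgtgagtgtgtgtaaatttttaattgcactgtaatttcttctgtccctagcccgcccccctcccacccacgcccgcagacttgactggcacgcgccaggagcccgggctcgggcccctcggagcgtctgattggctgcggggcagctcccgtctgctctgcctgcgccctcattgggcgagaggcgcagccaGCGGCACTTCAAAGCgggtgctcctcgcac
The shared run of 15 bases ends 43 bases before the Sp8 start and 15 bases before the Sp9 start. Of 32851 RefSeq promoter windows of the same length, 2 hold it on the same strand or its complement, those of Sp8 and Sp9. Because the run was picked from these windows, their holding it was fixed in advance, and a role of the run was not tested.

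Promoter windows were found for 24 of the 30 members, with 36 starts in all. The homeodomain core TAATTA was searched on both strands, allowing overlap with other motifs. It was present in 2 of the 24 members, Sp8 at another start and Adarb2, against 5.65% of all genes. By windows this was 2 of 36, against 4.84% of all promoter windows. The GC box GGGCGG, searched in the same way, was present in 14 of the 24 members, against 35.4% of all genes. It was present in 16 of the 36 windows, against 32.7% of all windows. These are matches of letters only.

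The genes that make and pack GABA did not pass the test. Gad1 and Gad2 encode the enzymes that make GABA from glutamate, and Slc32a1 encodes the transporter that loads it into synaptic vesicles. Gad1 had 2069, 3849 and 3066 normalised reads in Fezf2 KO, against 2838, 2507 and 2771 in wild type cortex. The Fezf2 KO libraries spanned the whole wild type range, with replicate 1 below it and the other two above. Gad1 averaged 2995 ± 892 in Fezf2 KO and 2705 ± 175 in wild type (SD, n = 3 each; log2 0.10, 95% interval -0.34 to 0.55, limma adjusted p = 0.945).

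Slc32a1 had 3383, 5116 and 4522 normalised reads in Fezf2 KO, against 4714, 4364 and 4486 in wild type cortex. Replicate 1 was again the lowest Fezf2 KO library and replicate 2 the highest, and the log2 change was -0.08 (95% interval -0.38 to 0.23, limma adjusted p = 0.936). Gad2 was tighter, with 1518, 1896 and 1495 in Fezf2 KO and 1563, 1517 and 1623 in wild type cortex. Its log2 change was 0.05 (95% interval -0.17 to 0.27, limma adjusted p = 0.941).

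The Dlx homeobox genes encode factors that promote the GABAergic fate and migration, and they lie in pairs on the chromosome. Dlx2 was the member of the family whose libraries did not overlap, with 5749, 5974 and 5689.8 normalised reads in Fezf2 KO, against 5291, 4895 and 5209 in wild type cortex. The difference was small relative to the level (5804 ± 150 in Fezf2 KO and 5132 ± 209 in wild type, SD, n = 3 each), with a log2 change of 0.18 (SE 0.050, unadjusted p = 0.0069) that did not pass the adjustment (limma adjusted p = 0.244).

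Its neighbour Dlx1 had 2 entries in the table. The first (kgCluster13720) had 10616, 11111 and 11297 in Fezf2 KO and 10045, 9427 and 11127 in wild type (log2 0.11, limma adjusted p = 0.692). The second (kgCluster13721) had 8270.5, 8625 and 8477 in Fezf2 KO and 7982, 7269 and 9052 in wild type (log2 0.07, limma adjusted p = 0.902). The genotypes overlapped in both, and the rule for splitting reads between them was not given in the sources used here.

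Dlx5 and Dlx6, the other pair, also overlapped. Dlx5 had 1172, 1459 and 1437 normalised reads in Fezf2 KO and 1373, 1259 and 1588 in wild type cortex (log2 -0.05, limma adjusted p = 0.953). Dlx6 had 256, 466 and 356 in Fezf2 KO and 501, 469 and 419 in wild type (log2 -0.40, 95% interval -0.86 to 0.05, limma adjusted p = 0.619). Dlx6 lies opposite an antisense transcript, Dlx6os1, which had 330, 355 and 312 in Fezf2 KO and 405, 309.8 and 382 in wild type. Because no source gives the strand of the reads, those of Dlx6 and Dlx6os1 cannot be told apart.

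Gsx1 and Gsx2 encode homeobox factors of progenitors in the eminences and were low. Gsx1 had 81.2, 153 and 93.6 normalised reads in Fezf2 KO and 122, 139.6 and 121 in wild type cortex (log2 -0.27, limma adjusted p = 0.843). Gsx2 had 202, 191 and 185 in Fezf2 KO and 174, 157 and 202 in wild type (log2 0.12, limma adjusted p = 0.890). Neither separated the genotypes.

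**Figure D2:**
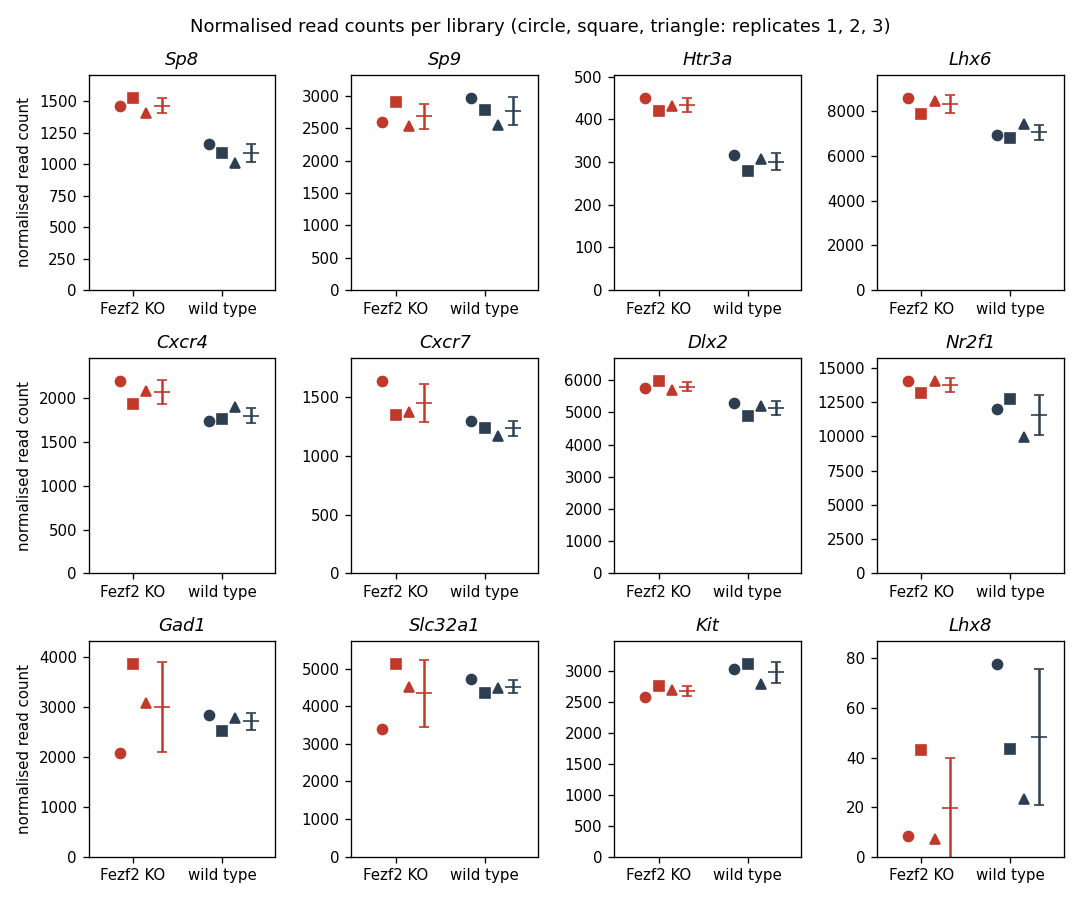
Normalised read counts (vertical axes, each starting at 0) of single members, with Fezf2 KO left of wild type; circles, squares and triangles are replicates 1, 2 and 3, and the bar beside them is the mean ± SD, cut at 0 for Lhx8 in Fezf2 KO. Sp8 lies between 1409 and 1527 in Fezf2 KO and between 1012 and 1159 in wild type, while Gad1 runs from 2069 to 3849 in Fezf2 KO around a narrower wild type range.

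Genes of the medial eminence programme lay on both sides of 0 and did not pass the test. Lhx6 encodes the LIM homeobox factor that Nkx2-1 switches on and that migrating interneurons keep. It had 8589.6, 7868 and 8471 normalised reads in Fezf2 KO, against 6917, 6807 and 7429 in wild type cortex, so that every Fezf2 KO library lay above every wild type library. Lhx6 averaged 8310 ± 387 in Fezf2 KO and 7051 ± 332 in wild type (SD, n = 3 each), a log2 change of 0.24 (SE 0.055, 95% interval 0.11 to 0.36, limma adjusted p = 0.136). It passed with DESeq2 (adjusted p = 0.00866) and not with edgeR (0.118).

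Nkx2-1, the factor that gives the medial eminence its identity, was low, with 135, 206 and 159 normalised reads in Fezf2 KO and 256, 217 and 179.6 in wild type cortex. The libraries overlapped (log2 -0.39, 95% interval -0.83 to 0.04, limma adjusted p = 0.607). Lhx8 marks cholinergic and other neurons of the basal forebrain. It had 8.12, 43.1 and 7.06 in Fezf2 KO and 77.7, 43.6 and 23.2 in wild type, which rest on 10, 48 and 8 reads and on 83, 50 and 27 reads.

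The Lhx8 values of Fezf2 KO 2 and wild type 2 were nearly equal, and the other Fezf2 KO libraries were lower than all wild type libraries. The log2 change was -1.57 (SE 0.677, unadjusted p = 0.0483, limma adjusted p = 0.546). An assembled noncoding transcript named for its place beside the gene, linc-Lhx8-BP, was likewise highest in replicate 2 among the Fezf2 KO libraries. It had 0.81, 13.5 and 1.77, against 16.8, 14.8 and 6.87 in wild type (log2 -1.65, limma adjusted p = 0.574). In Fezf2 KO 1 and 3 it lay below the level of 3 reads (2.44 and 2.65), so the size of its change is uncertain. Other such transcripts gave log2 changes of -0.55 (linc-Nr2f1), 0.25 (linc-Nr2f1-BP), and 0.01 and -0.36 (separate entries of linc-Dlx6-AS). Their limma adjusted p was 0.753, 0.654, 0.996 and 0.780.

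Sox6 and Maf encode factors that act after Lhx6 in migrating and settling cells. Sox6 had 1841, 1923 and 1522 normalised reads in Fezf2 KO and 1540.2, 1338 and 1485 in wild type cortex. A single wild type library lay above the lowest Fezf2 KO library (log2 0.27, 95% interval 0.04 to 0.50, limma adjusted p = 0.427). Maf had 3119.5, 3099 and 3273 in Fezf2 KO, against 2959.6, 2906 and 3027 in wild type, without overlap but with a log2 change of 0.09 (95% interval -0.02 to 0.21, limma adjusted p = 0.677).

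Among the other regulators linked to the caudal eminence, Nr2f1 did not overlap and Nr2f2 did. They encode the nuclear receptors COUP-TFI and COUP-TFII, and Nr2f1 is also expressed by cortical progenitors and excitatory neurons. Nr2f1 had 14007, 13169 and 14032 normalised reads in Fezf2 KO, against 11985, 12712 and 9922 in wild type cortex (log2 0.26, 95% interval 0.06 to 0.46, limma adjusted p = 0.354). Without wild type 3 its log2 change was 0.15. Nr2f2 had 1271, 2079.9 and 1448 in Fezf2 KO and 1547, 1517 and 1313 in wild type (log2 0.10, limma adjusted p = 0.933). For Nr2f2, replicate 2 stood above all other libraries and replicate 1 of Fezf2 KO below them.

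Npas1 and Npas3 encode basic helix-loop-helix factors with opposing effects on interneuron production in mice, and Adarb2 encodes an RNA-binding protein of caudal eminence cells. Npas1 had 3572, 3479 and 3518 normalised reads in Fezf2 KO and 3112, 2917 and 3507 in wild type cortex (log2 0.15, limma adjusted p = 0.594). Npas3 had 1769, 2584 and 1816 in Fezf2 KO and 1658, 1284 and 1856 in wild type (log2 0.36, 95% interval -0.04 to 0.75, limma adjusted p = 0.611). Adarb2 had 683, 1064 and 1012 in Fezf2 KO and 859, 719 and 1170.4 in wild type (log2 0.01, limma adjusted p = 0.997). The libraries overlapped for all 3 genes, by a single wild type library in the case of Npas1.

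Of the 5 receptor genes, 3 lay above wild type without overlap (Htr3a, Cxcr4 and Cxcr7) and 1 below (Kit), against 7.6% and 6.85% of all tested entries, and 0 of them passed the limma test. Htr3a encodes the serotonin-gated ion channel subunit that marks caudal eminence interneurons. It had 451, 420.3 and 431 normalised reads in Fezf2 KO, against 316, 278 and 308 in wild type cortex. No library of either genotype reached the range of the other, and the means were 434 ± 15.4 in Fezf2 KO and 301 ± 19.9 in wild type (SD, n = 3 each).

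The log2 change of Htr3a was 0.53 (SE 0.093, 95% interval 0.32 to 0.74), just outside the threshold with limma (adjusted p = 0.0545) and with edgeR (0.0544). DESeq2 passed it (adjusted p = 0.000803). Without each library in turn the limma adjusted p was between 0.110 and 0.193.

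Cxcr4 and Cxcr7 encode receptors of the chemokine Cxcl12, which keeps migrating interneurons in their streams. Cxcr4 had 2197, 1934 and 2085 normalised reads in Fezf2 KO, against 1744, 1759 and 1899 in wild type cortex (log2 0.20, 95% interval 0.04 to 0.36, limma adjusted p = 0.375). Cxcr7 had 1639, 1352 and 1371 in Fezf2 KO, against 1301, 1236 and 1175 in wild type (log2 0.23, 95% interval 0.02 to 0.43, limma adjusted p = 0.480), with a log2 change of 0.14 without Fezf2 KO 1. In both genes the lowest Fezf2 KO library was only slightly above the highest wild type library.

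Kit encodes the receptor for stem cell factor and Erbb4 the neuregulin receptor of migrating interneurons. Kit had 2582, 2749.8 and 2693 normalised reads in Fezf2 KO, against 3034, 3109 and 2789 in wild type cortex, all Fezf2 KO libraries being lower (log2 -0.15, 95% interval -0.29 to -0.01, limma adjusted p = 0.489). Erbb4 had 984, 1226 and 949 in Fezf2 KO and 933, 863 and 952 in wild type, with an overlap of a single library pair (log2 0.19, limma adjusted p = 0.680).

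Markers of mature subtypes did not separate the genotypes. Calb1 encodes the calcium buffer calbindin, also abundant in striatal neurons, and had 192, 534 and 319 normalised reads in Fezf2 KO and 436, 346 and 219 in wild type cortex. The Fezf2 KO libraries held both the lowest and the highest value (log2 -0.01, 95% interval -0.86 to 0.84, limma adjusted p = 0.999). Calb2, which encodes calretinin, had 468, 635 and 559 in Fezf2 KO and 569, 561 and 602 in wild type (log2 -0.07, limma adjusted p = 0.936).

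Elfn1 encodes a postsynaptic adhesion protein of somatostatin interneurons. It had 2442, 2883 and 3364 normalised reads in Fezf2 KO and 2652, 2537 and 3168 in wild type cortex (log2 0.05, limma adjusted p = 0.962). Pvalb, the parvalbumin gene, which interneurons switch on later in postnatal life, had 0, 1 and 0 reads in Fezf2 KO and 1, 1 and 1 in wild type. All of these are within the 3 reads that a count of 0 allows for counting error, so no difference was detectable at this depth and no fold is given.

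The Fezf2 KO libraries differed among themselves in a repeated order. Replicate 1 was the lowest Fezf2 KO library in 15 of the 30 entries (50%, against 37.3% of all tested entries), and replicate 2 was the highest in 20 (66.7%, against 30.6%). Both held in 13 entries (43.3%, against 19.1%), among them Gad1, Slc32a1, Dlx5, Dlx6, Gsx1, Nkx2-1, Nr2f2, Npas3, Adarb2, Calb1 and Calb2. The median coefficient of variation was 11.9% in Fezf2 KO and 7.94% in wild type libraries, beside 7.89% and 7.26% over all entries. It was above 20% for 10 entries in Fezf2 KO and for 3 in wild type, Lhx8, Adarb2 and Calb1.

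**Figure D3:**
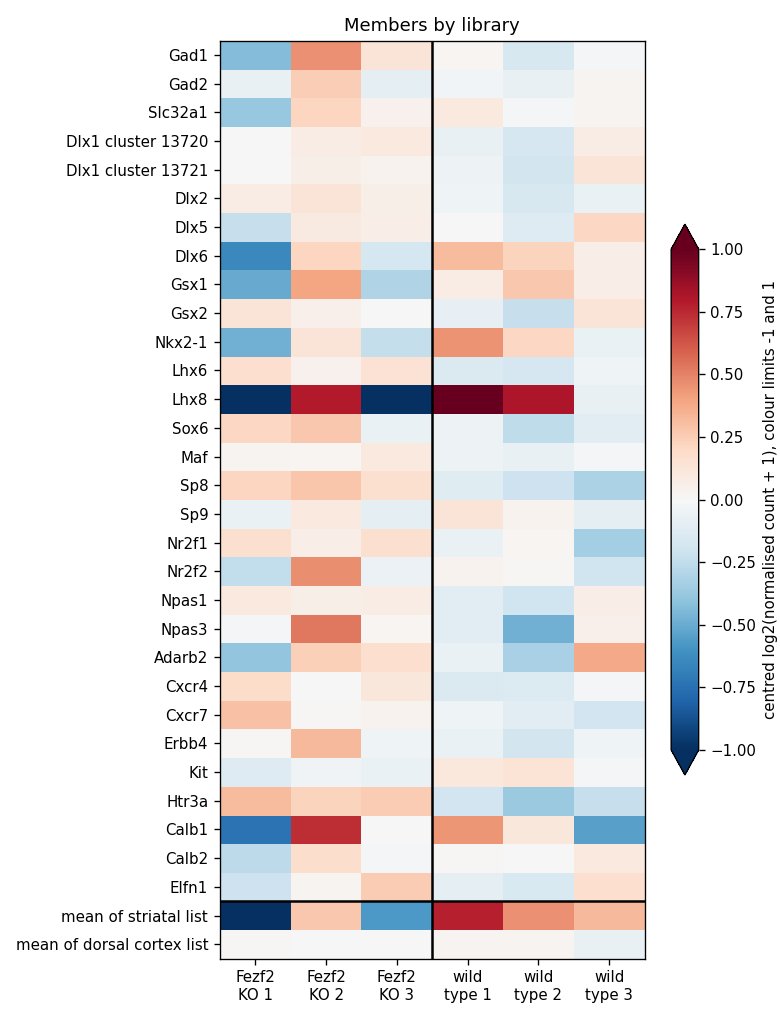
Log2 level of each member entry in each library minus the mean of the 6 libraries, Fezf2 KO columns left of wild type columns, rows in order of role. Fezf2 KO 1 is the lowest of the 6 libraries in 12 of the 30 entries, and Fezf2 KO 2 is the highest Fezf2 KO library in 20.

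The same order, Fezf2 KO 1 lowest and Fezf2 KO 2 highest, was found in the mean level of 9 of 14 marker lists. It held in 19.1% of single tested entries, and no such share was computed for list means. The lists are not separate, since some genes stand in several. Ebf1 and Isl1 are in the striatal and eminence lists, Tac1 in the striatal and interneuron lists, and Reln in the interneuron and Cajal-Retzius lists. Etv1 is in the interneuron and olfactory bulb lists, Gbx2 in the eminence and thalamus lists, and Dlx6os1 in the olfactory bulb and antisense lists. For Cajal-Retzius genes the mean of the centred log2 levels was -0.22 in replicate 1, 0.28 in replicate 2 and -0.02 in replicate 3 of Fezf2 KO, and for GABA handling genes it was -0.08, 0.11 and 0.01. The spread was widest among these 9 lists for striatal genes. The mean of their centred log2 levels was -1.26 in replicate 1, 0.27 in replicate 2 and -0.57 in replicate 3 of Fezf2 KO. In wild type it was 0.78 in replicate 1, 0.46 in replicate 2 and 0.32 in replicate 3. Of the 16 striatal entries, 13 were lower at an unadjusted limma p under 0.05. The striatal gene that fell after adjustment was Ppp1r1b, which encodes the dopamine-regulated phosphatase inhibitor DARPP-32. It had 2178, 3219 and 2244 normalised reads in Fezf2 KO, against 6715, 6407 and 5718 in wild type cortex (log2 -1.32, SE 0.142, limma adjusted p = 0.00594).

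With the mean striatal level added to the limma fit, 29 of the 30 member entries had a log2 change above 0 and 1, Kit, below it. Of the 10 that had been below 0, 9 were above it, and the median was 0.20, beside -0.0005 over all entries. The shift was at least 0.3 for 10 entries, Gad1, Slc32a1, Dlx6, Gsx1, Nkx2-1, Lhx8, Nr2f2, Npas3, Adarb2 and Calb1, and all 10 are the entries with a coefficient of variation above 20% in Fezf2 KO. Shift and coefficient come from the same library values of each entry, so this match is not a separate result. Gad1 moved to 0.67 and Calb1 to 1.08, whereas Sp8 went from 0.43 to 0.51 and Htr3a from 0.53 to 0.48. Of the other members without overlap, Lhx6 moved toward 0, to 0.14, as did Cxcr4 to 0.07, Cxcr7 to 0.09 and Kit to -0.08. Nr2f1 went from 0.26 to 0.24, Maf from 0.09 to 0.08 and Dlx2 from 0.18 to 0.22.

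No member passed in that fit, where the lowest limma adjusted p was 0.142 and Sp8 had 0.176. Every Fezf2 KO library lay below every wild type library in the covariate, so its share and that of genotype cannot be told apart, and the part of striatal tissue in the member values was not tested. Without the libraries at the ends of the striatal range, Fezf2 KO 1 and wild type 1, Sp8 had a log2 change of 0.48 (limma adjusted p = 0.127).

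**Figure D4:**
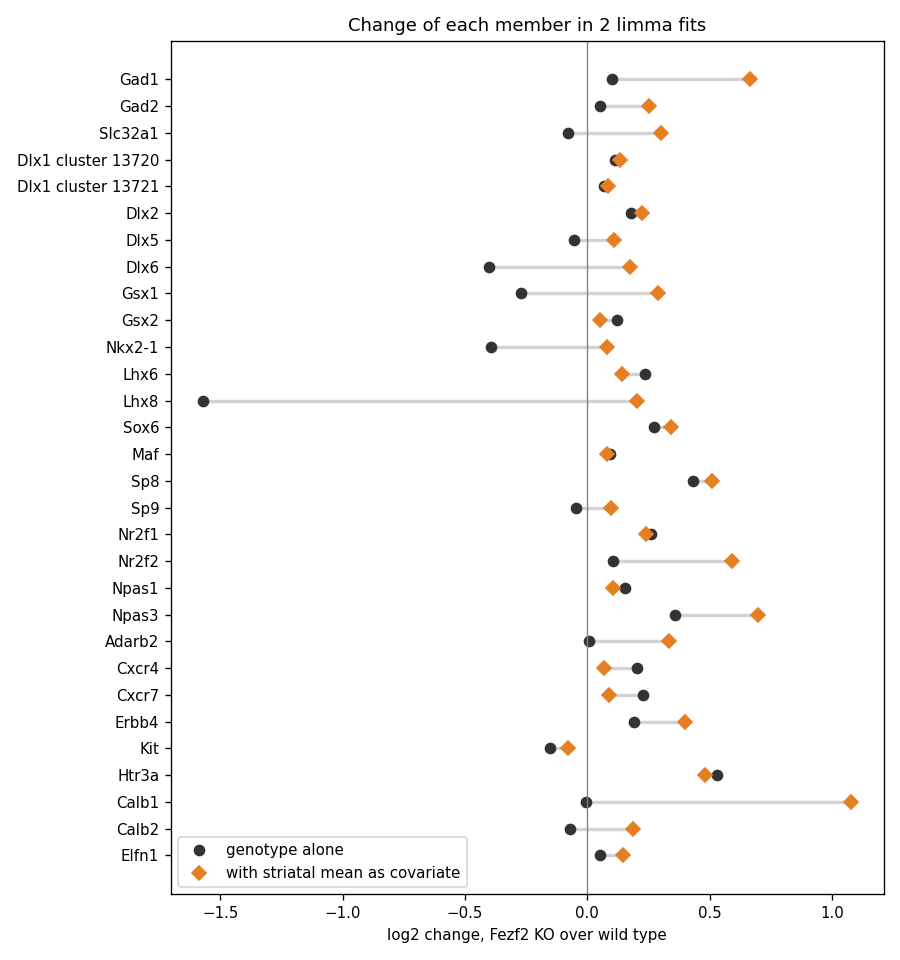
Log2 change of each member entry with the mean striatal level added to the limma fit (diamonds) and with genotype as the single term (circles), joined by a line for each entry. Gad1 goes to 0.67 and Calb1 to 1.08 with the covariate, and Kit remains below 0.

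The other genes of interneurons and of their surroundings were read from lists chosen, like the members, with earlier results of these data known. Of 28 entries for other interneuron regulators and subtype markers, 2 rose and 0 fell (0.404% and 0.308% of all tested entries), and 11 lay above wild type without overlap and 2 below (7.6% and 6.85% of all). Their median log2 change was 0.17, and 11 were higher and 2 lower at an unadjusted limma p under 0.05. Tac1, among the lower entries, is also in the striatal list. Cck, the cholecystokinin gene, which excitatory neurons also express, had 7921, 7236 and 8621 normalised reads in Fezf2 KO, against 3170.2, 3888 and 3060.2 in wild type cortex (log2 1.24, SE 0.0999, limma adjusted p = 0.00136). Npy, the neuropeptide Y gene, had 8299, 6186 and 6591 in Fezf2 KO, against 3910.3, 4523 and 4597 in wild type (log2 0.69, SE 0.112, limma adjusted p = 0.0402). All Fezf2 KO libraries lay above all wild type libraries for both peptide genes. The Npy call was lost with litter as a block (limma adjusted p = 0.0686), without Fezf2 KO 3 (0.121) or wild type 1, 2 or 3 (0.117, 0.105 and 0.111), and with the striatal covariate (log2 0.38, adjusted p = 0.230).

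Genes for GABA uptake, breakdown and reception did not pass the test in any of 12 entries, with 1 higher at an unadjusted limma p under 0.05 and a median log2 change of 0.01. The lowest p values were for the GABA transporter gene Slc6a11 (log2 0.22, limma adjusted p = 0.218) and the GABA transaminase gene Abat (0.19, 0.641). Slc6a13, also on this list, did not pass the filter on low values. It had 361 normalised reads in wild type 1 and 2.62 to 4.87 in the other libraries. The ligands and partners of the member receptors also gave 0 changed genes of 11, with 1 higher at an unadjusted limma p under 0.05 and a median of -0.03. Kitl, the ligand of Kit, had 1657, 1577 and 1408 normalised reads in Fezf2 KO, against 1271, 1303 and 1000.3 in wild type cortex (log2 0.38, limma adjusted p = 0.275). Kitl and Kit thus lay on opposite sides, each without overlap and neither past the threshold. Grm7, a glutamate receptor partner of Elfn1, had a log2 change of 0.23 (limma adjusted p = 0.620).

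Of 11 ganglionic eminence entries 0 passed in limma and 3 were lower at an unadjusted p under 0.05, with Ebf1 at -1.45 and Zic1 at -0.65 (limma adjusted p = 0.342 and 0.423). Ebf1 and Isl1, both among these 3, also stand in the striatal list. Zic1 had 954 normalised reads in wild type 1, against 470 and 572 in the other wild type libraries. Of 10 olfactory bulb and lateral eminence entries, 1 fell, Trh, the gene of thyrotropin-releasing hormone, with 59.3, 65.6 and 68.9 normalised reads in Fezf2 KO, against 176, 109.9 and 174 in wild type cortex (log2 -1.20, limma adjusted p = 0.0445). That call was lost with the litter block (0.0578) and without Fezf2 KO 1, 2 or 3 (0.116, 0.0972 and 0.141) or wild type 1 or 3 (0.143 and 0.171). Of these 10 entries, 4 were lower and 0 higher at an unadjusted limma p under 0.05. Without overlap, 3 lay below wild type and 0 above, against 6.85% and 7.6% of all tested entries. After Trh, Meis2 had the lowest p (log2 -0.32, limma adjusted p = 0.0625). Of 2 antisense entries 0 passed and 1 was lower at an unadjusted limma p under 0.05, Six3os1 at -1.28 (limma adjusted p = 0.358) and Dlx6os1 at -0.13 (0.869).

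Markers of other cells that a cortical dissection can hold were also read. Among thalamic genes, 1 of 5 rose, Slc17a6, a vesicular glutamate transporter gene also expressed by cortical neurons, with 929, 989 and 966 normalised reads in Fezf2 KO, against 608, 698 and 687 in wild type cortex (log2 0.53, limma adjusted p = 0.0276). Leaving out Fezf2 KO 1, 2 or 3 (0.0542, 0.0890 and 0.127) or wild type 1, 2 or 3 (0.0751, 0.0691 and 0.0743) lost the Slc17a6 call, and the litter block kept it (0.0403). In 0 of 7 Cajal-Retzius, 6 endothelial, 5 oligodendrocyte precursor, 5 choroid plexus, 4 erythroid and 9 dorsal cortex entries was the threshold passed with limma. At an unadjusted p under 0.05, 1 entry each was higher in the endothelial, oligodendrocyte precursor, choroid plexus and dorsal cortex lists and 1 dorsal cortex entry was lower, with 0 in the Cajal-Retzius and erythroid lists. The lowest p values of these lists were for Cxcl14 (log2 -0.21, limma adjusted p = 0.809) and Car10 (0.24, 0.836), Tek (0.31, 0.423) and Cldn5 (0.17, 0.615), and Pdgfra (0.19, 0.186) and Sox10 (0.21, 0.571). In the choroid plexus list they were Ttr (4.68, 0.401) and Kcne2 (1.40, 0.606) and in the erythroid list the 2 entries of Hba-a2 (0.76, 0.769, and -0.10, 0.913). In the dorsal cortex list, Bcl11b had a log2 change of -0.84 (limma adjusted p = 0.114). Their part in the member values was not tested.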

How the data were processed

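The deposited signal was a table of 23016 entries with a normalised read count per gene and library: read counts divided by 1 size factor per library, as the values show. Per the submitters' processing notes, the tools were Bowtie, STAR and DESeq and the build mm9, with no versions given. Strand and counting rules are not given in the sources used here. The smallest step between values was taken as 1 read (0.812 to 0.936 deposited units), and 100% of values were whole multiples of it within 0.006. On these recovered reads edgeR called 121 genes. No pair of libraries agreed within sampling noise (chi-square per degree of freedom 8.39 to 31.1). Limits cover counting error only.

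The test took the 17557 entries that reached 10 in 3 or more libraries and used limma on log2(value + 1), genotype as the single term and a trended, moderated variance, and p-values were adjusted over all of them. The design named this test for values already divided by size factors. The p-values set the genotype difference against the spread between single pups, moderated toward a trend over all tested entries. Pups of the same litter were treated as independent. The procedure was tested on simulated data with known changes. The members, lists and tests were chosen with earlier results of these data known. All 30 members are named, and of each list every gene that passed, or the 2 with the smallest p, apart from 1 gene that is not reported here.

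Alternatives were a pseudocount of 0.5, no filter, edgeR with TMM or RLE factors, DESeq2 and limma-voom on recovered reads, litter m1 alone, a litter block, leaving out each library, and the striatal mean as a covariate. Leaving out Fezf2 KO 1 and wild type 1 together was added after the data were seen. Litter comes from the labels. Deviations from the genotype means, correlated over 14922 genes (not independent replicates), gave r of -0.117, 0.173, 0.202, -0.044 and 0.262 for pairs from the same litter and -0.182 to -0.067 for other pairs. RefSeq promoters (GRCm38.p6, a later build than mm9) were matched by symbol, Cxcr7 as Ackr3, and served for sequence only. Python 3.11.15 (matplotlib 3.10.9, pandas 2.3.3, numpy 2.4.6) and R 4.3.3 (DESeq2 1.42.0, edgeR 4.0.16, limma 3.58.1) were used.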

Additional observations from a re-analysis of the deposited data

How the results depend on the processing

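The count of member entries that rose, 1 in the limma fit, was 0 with no filter, with edgeR (TMM or RLE), with limma-voom, in litter m1 alone, with the striatal covariate, without Fezf2 KO 1 and wild type 1 together, and without each single library (0 to 0). It was 3 with DESeq2 (Sp8, Htr3a and Lhx6). The count that fell was 0 in all of these. Litter as a replicate block kept 1 riser and gave 74 higher and 64 lower over all entries, and it changed no member's call.

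Over all entries 71 rose and 54 fell. These counts were 242 and 161 with DESeq2, 12 and 17 in litter m1 alone, 16 and 19 with the striatal covariate, and 28 and 29 without Fezf2 KO 1 and wild type 1. Without single libraries 21 to 55 rose and 37 to 73 fell.

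Over the context lists 3 genes rose and 2 fell. DESeq2 gave 9 and 5, litter m1 alone 1 and 0, the replicate block 2 and 1 (Npy and Trh lost their calls), and the fit without Fezf2 KO 1 and wild type 1 gave 2 and 0. The count that fell was 1 with no filter, limma-voom or the covariate. Without single libraries 1 to 3 rose and 1 to 10 fell, 10 without Fezf2 KO 2.

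Sp8, the 1 member called in the limma fit with genotype alone, kept its sign and lost its call in 13 of 16 settings. Htr3a and Lhx6 gained a call with DESeq2. Of 480 member values over the 16 settings, 36 uncalled values of 15 entries changed sign, and the cause was not tested. Depth limits Pvalb, at 0 or 1 read. Litter m2 alone, with 1 library per genotype, gave no fit.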
